A study of Rapana venosa with 9 samples.

Results

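The comparison described here set competent larvae (CL) of the veined rapa whelk, Rapana venosa, against precompetent larvae (Pre-CL), in order to find which microRNAs (miRNAs) changed as the swimming larvae became able to metamorphose. It used 6 of the 9 small RNA libraries of the study, 3 of competent larvae at the stage of 4 spiral whorls and 3 of precompetent larvae at the stage of 3 spiral whorls. The other 3 libraries, of postlarvae, entered the fit for the estimate of the spread. Each library was a pool of 40 to 100 individuals from the hatchery offspring of wild parents, reared in pools on a mixed diet of live microalgae, staged under the microscope, rinsed and frozen. The stages differed in growth as well as in competence, and these cannot be told apart. The protocol names an individual intestine as the source of the RNA although the samples are described as pools of whole larvae, and the sources do not settle which tissue was used. The miRNAs best known from muscle (miR-1) and from neurons (miR-124) were counted in all 6 larval libraries, which does not settle the tissue either.

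Of the 918 miRNA references in the deposited count table, 763 carry a known miRNA name and 155 were predicted by the authors. A total of 683 references had a count in at least 1 larval library. Over all 9 libraries, 214 references had enough counts to be tested (163 known and 51 predicted). Some of these, such as miR-307-y and miR-200-x, had no count in a larval library and were tested only because of the postlarvae. They could not be called, and they are kept in the shares and medians below. The other 704 were too rare, and 596 references had fewer than 10 counts over the 6 larval libraries together. Levels are given in CPM, the count scaled to a library of 1000000 miRNA counts after TMM scaling, and the test was the quasi-likelihood test of edgeR. A miRNA was called when its Benjamini-Hochberg adjusted p was under 0.05 and its fold change over 2. The final letter of a reference (x, y or z) is kept as deposited, and its meaning is not given in the sources used here.

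A miRNA guides an Argonaute protein to messenger RNAs, mainly by pairing of its seed, bases 2 to 8 from the 5′ end, and usually lowers their stability or translation. In nematodes and flies, let-7 and its neighbours in the genome control the timing of the passage from juvenile to adult stages. In most animals studied, miR-1 and miR-133 are miRNAs of muscle and miR-124 is a miRNA of neurons.

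The sequences of the called miRNAs with a mean of at least 10 CPM are printed first, because the results turn on them and because several differ by 1 base or by a few bases at an end. They are the deposited reference sequences, written in DNA letters from 5′ to 3′, with the seed in capitals. The references higher in competent larvae were as follows.
let-7-x: tGAGGTAGtcggttgtatagtt
miR-98-x: tGAGGTAGtcagttgtatagtt
let-7-y: cTGTACAAcctgctagctttcc
miR-124-y: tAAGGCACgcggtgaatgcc
miR-1-z: tGGAATGTaaagaagtatgt
miR-206-y: tGGAATGTaaggaagtatgt
miR-278-y: tCGGTGGGacttttgttcggtt
miR-278-z: tCGGTGGGattttcgttcgg
miR-278-x: tCGGTGGGattttcgttcggg
predicted 3: tCTAATGCtgatgctctgtgagt

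The references lower in competent larvae were as follows, together with 3 abundant relatives (miR-1-y, miR-216-x and miR-2-y) that were not called and share a seed with called ones. The predicted miRNAs are numbered here by their abundance.
miR-283-x: tAATCTCAgctggtaattctggga
miR-216-x: tAATCTCAgctggtaattctg
miR-12-x: tGAGTATTacatcaggtactga
miR-745-y: gAGCTGCCaaatgaagggctgt
miR-1990-x: aGTAAGTTgatggggtcccagg
miR-276-y: tAGGAACTtcataccgtgctct
miR-13-y: tATCACAGcctcttggatgagc
miR-2-y: tATCACAGcctgcttggatgagc
miR-100-x: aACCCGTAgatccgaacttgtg
miR-99-x: aACCCGTAgatccgaacttg
miR-5119-y: cTCATCACatcctggggctg
miR-1-y: tGGAATGTaaagaagtatgtac
predicted 1: tTGGTTCTgatagggcagctgc
predicted 2: tCAACAGAaatggcggacccggt
predicted 4: cAGATTCActtgatctactgtgt

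Counting positions from 1 at the 5′ end, let-7-x and miR-98-x differ by G11A and miR-1-z and miR-206-y by A11G. The sequence of miR-1-z is contained in that of miR-1-y, miR-99-x in miR-100-x, miR-216-x in miR-283-x and miR-278-z in miR-278-x. The authors assigned reads with up to 2 mismatches, so how reads were assigned among such references is uncertain. The sum over a seed is given beside them. Some references of identical sequence have equal or nearly equal counts, so a read may have been counted for each, which was not tested. Sums over a seed and shares of CPM would then hold such reads more than once. In CL 1, miR-36-y had 1006 CPM, miR-37-y of the same sequence 1002 CPM, and their seed CACCGGG 2076 CPM.

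The 6 larval libraries held 5130258 to 6781384 miRNA counts each, in which 3 counts correspond to 0.444 to 0.694 CPM. Pre-CL 3 stood apart. Reads under 18 nt made up 14.5% of its high-quality reads, against 4.29% to 6.26% in the other 5 larval libraries, and it had a count for 414 references, against 297 to 378. In 11 of the 22 called miRNAs with at least 10 CPM it was the precompetent library nearest to the level of competent larvae, against 6 for Pre-CL 1 and 5 for Pre-CL 2. Whether its short reads had a part in these values was not tested. Without Pre-CL 3, 27 miRNAs were called higher and 27 lower.

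Of the 214 tested miRNAs, 22 rose (10.3%) and 20 fell (9.35%) in competent larvae, which is 19.6% in all. At an adjusted p under 0.05 and any fold, the count was 50 (23.4%). The 3 competent and the 3 precompetent libraries did not overlap for 79 miRNAs (36.9%), with competent larvae above in 42 (19.6%) and below in 37 (17.3%). Over 169 groups of references with a common seed, 16 rose (9.47%) and 16 fell (9.47%), 18.9% in all, and at 10 CPM or more 5 of 89 rose and 9 fell. Some of the 169 groups had no larval count either and could not be called. The stages did not overlap for 41 of the 42 called miRNAs, miR-12-x being the exception. The median log2 fold change of all tested miRNAs was -0.29. All of these values are relative to the total of miRNA counts in pooled animals, in which fewer cells of a type and less RNA per cell cannot be told apart.

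The most abundant miRNAs took little part in these calls. None of the 10 most abundant was called by edgeR, DESeq2 or limma (2 had an unadjusted p under 0.05 in edgeR, both lower). These 10 held 67.3% of the CPM of competent larvae and 73.2% of that of precompetent larvae. They include miR-263-x and miR-183-x, which have the same sequence, and reads counted for both would enter these shares more than once. Among the 37 miRNAs of at least 1000 CPM, 3 rose (let-7-x, miR-1-z and miR-278-y) and none was called lower by edgeR, DESeq2 or limma, although 3 were lower at an unadjusted p under 0.05 in edgeR. Among the 25 of 100 to 1000 CPM, 2 rose and 3 fell. Among the 56 of 10 to 100 CPM, 5 rose and 9 fell, and of the 96 under 10 CPM, 12 rose and 8 fell. The 22 miRNAs that rose made up 6.48% of the CPM of competent larvae, against 2.53% in precompetent larvae. The 20 that fell made up 0.0563% in competent larvae, against 0.184% in precompetent larvae. Large folds were rare among miRNAs that were not scarce, since only miR-124-y, miR-276-y and miR-13-y exceeded a 4-fold change among those with at least 10 CPM.

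**Figure D1:**
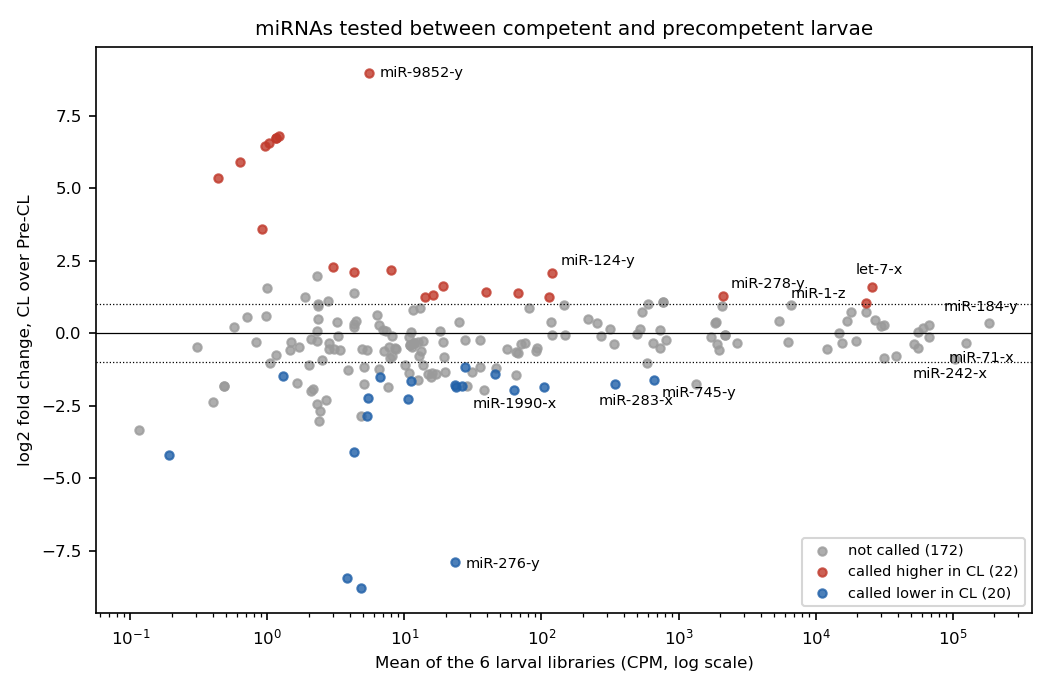
Log2 fold change of competent over precompetent larvae (vertical) against the mean of the 6 larval libraries in CPM (horizontal, log scale) for the 214 tested miRNAs, with dotted lines at a fold of 2. Called miRNAs of at least 1000 CPM are all above 0. Points above 5 or below -5 are miRNAs with 0 to 3 counts in 1 of the stages, so their heights follow from the small count that the fit adds.

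The let-7 group rose. Its main member, let-7-x, had 37708, 42066 and 37363 CPM in the competent libraries, against 9405, 8134 and 21309 CPM in the precompetent libraries. The stages did not overlap, and Pre-CL 3 was the highest precompetent library. The mean was 39046 ± 2621 CPM in competent and 12949 ± 7268 CPM in precompetent larvae (SD, n = 3 each), a log2 fold change of 1.59 ± 0.34 (SE, edgeR, adjusted p = 0.0103), and let-7-x was called in every fit that left out 1 library.

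miR-98-x, named after a vertebrate member of the let-7 family and 1 base away from let-7-x, had 57.4, 62.4 and 52.1 CPM in competent larvae, against 16.1, 12.7 and 35.2 CPM in precompetent larvae. It rose by a log2 fold change of 1.43 ± 0.39 (adjusted p = 0.0264), with no overlap and with Pre-CL 3 again highest among its stage. It amounted to 0.146 ± 0.00650% of the summed counts of both references in competent larvae and to 0.164 ± 0.00749% in precompetent larvae, a range of 0.139% to 0.171% over all 6 libraries (difference between stages by an exact permutation test, two-sided, p = 0.1, which is as low as 3 against 3 can go). Its call was lost without CL 1, CL 2, CL 3 or Pre-CL 1, at log2 fold changes of 1.26 to 1.48.

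let-7-y, whose seed differs from that of let-7-x, had 19.96, 22.7 and 26.4 CPM in competent larvae, against 8.42, 10.6 and 8.79 CPM in precompetent larvae. The libraries of each stage lay close together and the stages did not overlap. The log2 fold change was 1.31 ± 0.29 (adjusted p = 0.0118), and 1.19 without CL 3, when it was no longer called. Summed over the 6 references with the let-7 seed GAGGTAG, the level was 39060, 38256 and 38475 CPM in competent larvae, against 9596, 8374 and 22324 CPM in precompetent larvae, and this sum was called higher as well (log2 1.52 ± 0.34, adjusted p = 0.0138 over 169 seed groups). In the postlarvae, let-7-x averaged 25748 CPM, below competent larvae and above precompetent larvae.

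The miR-100 group fell while let-7 rose. In flies miR-100, let-7 and miR-125 come from 1 transcript, and miR-100 is among the most widely conserved animal miRNAs. miR-100-x had 40.7, 21.2 and 12.9 CPM in competent larvae, against 54.4, 70.1 and 76.8 CPM in precompetent larvae. The stages did not overlap, although the competent libraries ranged over 3-fold among themselves. It fell by 1.42 ± 0.38 on the log2 scale (adjusted p = 0.0264). The call was lost without CL 2, CL 3 or Pre-CL 2, at values of -1.28 to -1.11, with total miRNA counts as library size (-1.35) and with the larval libraries alone (-1.37).

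miR-99-x, the form shorter by 2 bases, had 12.1, 7.75 and 11.3 CPM in competent larvae, against 66.6, 15.4 and 26.6 CPM in precompetent larvae. It fell by 1.80 ± 0.49 on the log2 scale (adjusted p = 0.0270), with Pre-CL 1 far above the rest. Its call held only in the fits without Pre-CL 2 or Pre-CL 3, and was lost in the other 7, with -1.003 without Pre-CL 1 and -1.89 without CL 1 as the extremes, and it was lost with the larval libraries alone (-1.75). The sum over their shared seed ACCCGTA fell by 1.59 on the log2 scale (adjusted p = 0.00981).

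miR-125-x, the relative of nematode lin-4, was not called and was erratic, with 5.03, 2.27 and 10.8 CPM in competent larvae, against 33.1, 2.09 and 11.8 CPM in precompetent larvae (log2 -1.38 ± 0.86). The stages overlapped. Of the 6 tested members of the let-7 complex, 3 rose, 2 fell and 1 did not pass the test, beside 22 and 20 of all 214. The median log2 fold change of the list was -0.04, beside -0.29 for all tested miRNAs. The members that rose held nearly all the counts of the list, which amounted to 3.43% of the CPM of competent larvae and 1.12% of that of precompetent larvae.

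**Figure D2:**
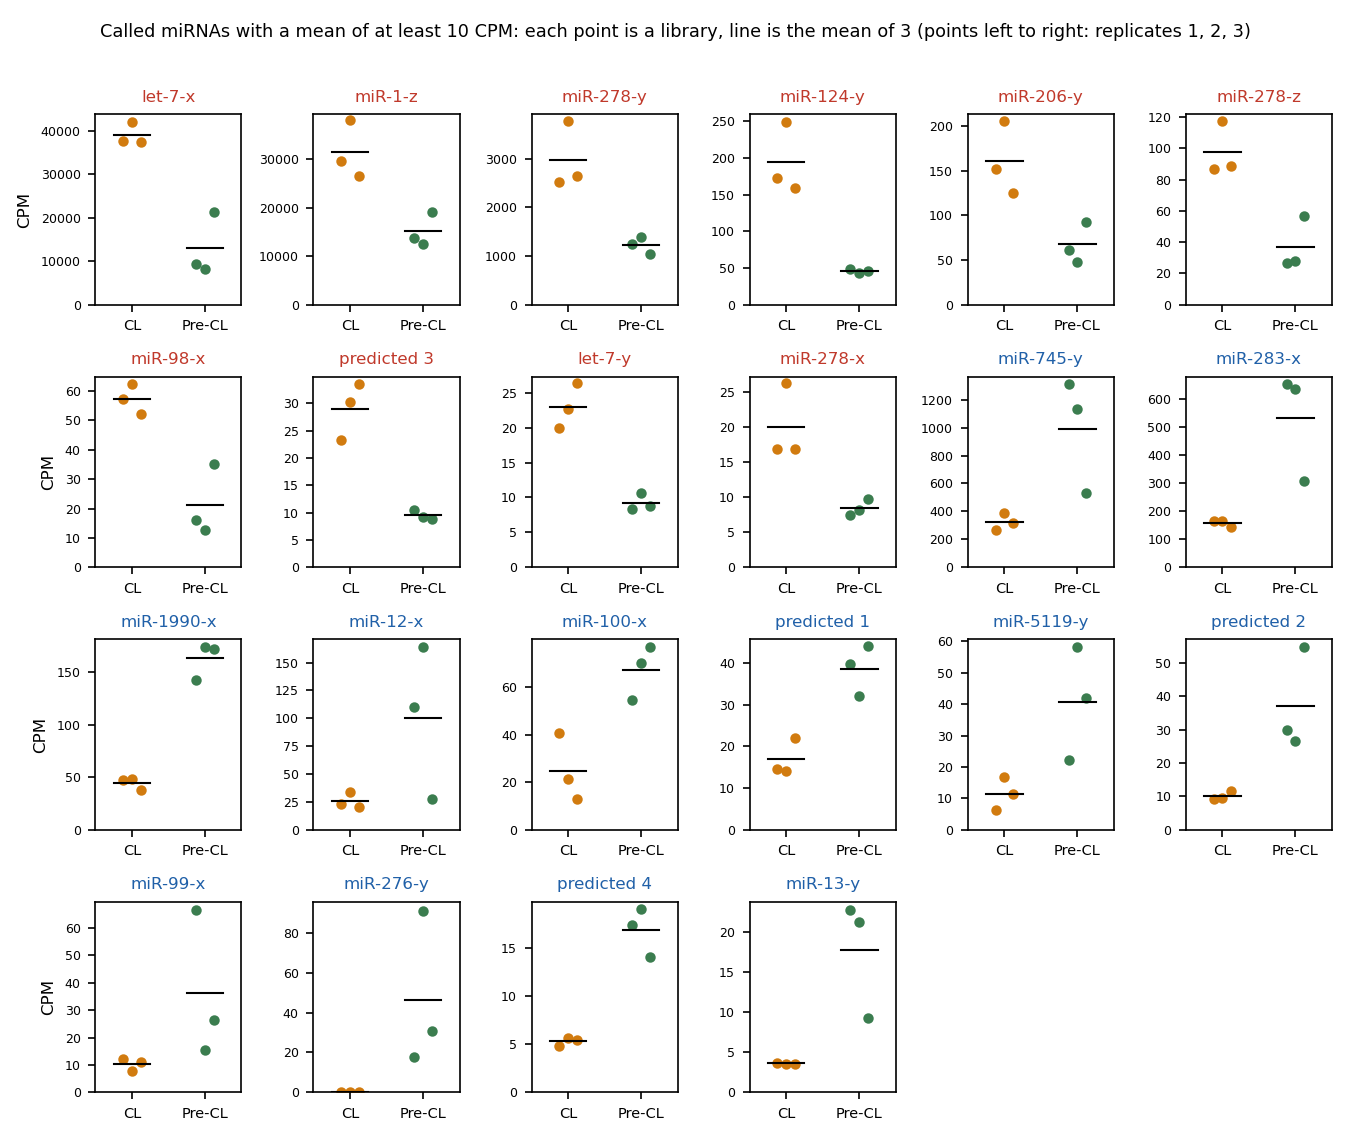
CPM of the 22 called miRNAs with at least 10 CPM in each competent (CL, orange) and precompetent (Pre-CL, green) library. Points run from replicate 1 to 3, lines are means of 3 libraries, axes start at 0, red titles are miRNAs higher in CL and blue titles miRNAs lower in CL. The stages overlap only for miR-12-x, where Pre-CL 3 lies within the range of CL.

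The muscle miRNAs lay toward the higher side in competent larvae (median log2 fold change 0.87, beside -0.29 for all 214 tested miRNAs). Of the 5 tested members 2 rose, beside 22 of all 214 (10.3%). These 2, miR-1-z and miR-206-y, are 1 base apart. miR-1-z, a form of the muscle miRNA miR-1 without its last 2 bases, had 29671, 37936 and 26389 CPM in competent larvae, against 13744, 12528 and 19090.5 CPM in precompetent larvae. All competent libraries were above all precompetent libraries. The log2 fold change was 1.05 ± 0.22 (adjusted p = 0.0102), just past the fold limit, and lay between 0.96 and 0.997 without CL 2, Pre-CL 1 or Pre-CL 2, when it was not called.

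The full-length miR-1-y had 72578, 81961 and 67829 CPM in competent larvae, against 66332, 50878 and 64558 CPM in precompetent larvae. It was not called (log2 0.29 ± 0.17, adjusted p = 0.28), though here too the stages did not overlap. The shorter form accordingly made up 29.0%, 31.6% and 28.0% of the counts of both forms in competent larvae, against 17.2%, 19.8% and 22.8% in precompetent larvae. The difference of 9.64 percentage points had an exact permutation p = 0.1 (two-sided), the smallest that this design allows. With the counts of both forms added, the log2 fold change was 0.42, and that sum was not called. The sum over the seed GGAATGT (log2 0.41 ± 0.17, adjusted p = 0.11) was not called either. The call for miR-1-z thus did not hold for the sum of both forms. How reads were assigned between the forms, and whether this had a part in the call, was not tested.

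miR-206-y, named after a vertebrate muscle miRNA related to miR-1, had 152, 205 and 124 CPM in competent larvae, against 61.5, 48.1 and 93.0 CPM in precompetent larvae. It rose by a log2 fold change of 1.25 ± 0.31 (adjusted p = 0.0189), without overlap, and was not called without CL 2 (1.10) or Pre-CL 1 (1.19). It amounted to 0.214 ± 0.0336% of the counts of miR-206-y and miR-1-y in competent larvae and 0.110 ± 0.0290% in precompetent larvae (exact permutation p = 0.1). The reference nearest to it in sequence is miR-1-z, which is 1 base away and rose by a log2 fold change of 1.05, whereas miR-1-y was not called. A share against miR-1-z was not computed, and whether miR-206-y rose apart from miR-1-z was not tested. miR-133-z, the partner of miR-1 in muscle, had 436, 990.2 and 587 CPM in competent larvae, against 539, 443 and 243 CPM in precompetent larvae. It overlapped between the stages and was not called (log2 0.72 ± 0.41), nor was miR-133-y (0.87 ± 0.37). In postlarvae, miR-133-z averaged 3470.4 CPM.

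**Figure D3:**
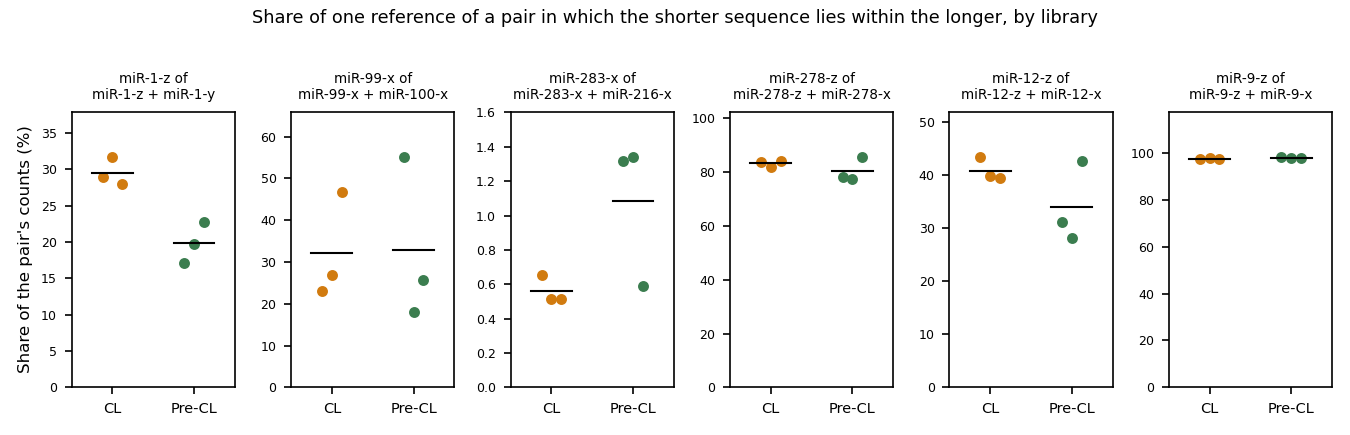
Share of the first-named reference in the summed counts of 2 references of which the shorter lies within the longer (vertical, percent, each axis from 0), for each competent (CL) and precompetent (Pre-CL) library, with means of 3 libraries as lines. Only the pair of miR-1-z and miR-1-y shows no overlap, at 28.0% to 31.6% in CL and 17.2% to 22.8% in Pre-CL.

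miR-124-y, the neuronal miRNA, showed the largest rise among the miRNAs with at least 10 CPM. It had 173, 249.6 and 159.9 CPM in competent larvae, against 48.3, 43.9 and 46.3 CPM in precompetent larvae. The precompetent libraries were tightly grouped and the lowest competent library was over 3 times the highest of them. The mean was 194 ± 48.4 CPM in competent and 46.1 ± 2.19 CPM in precompetent larvae (SD, n = 3 each), a 4.21-fold difference (log2 2.07 ± 0.24, adjusted p = 0.00267). It was called in every fit that left out 1 library, and in postlarvae it averaged 297 CPM.

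The other 11 tested members of the neural list were not called by edgeR, DESeq2 or limma, and the list had a median log2 fold change of -0.19. Its 2 most abundant members were miR-7-x, which acts in the photoreceptors and sensory organs of flies, and miR-9-z, a regulator of neurogenesis in vertebrates. miR-7-x had 13847, 9442 and 18345 CPM in competent larvae, against 22334, 15677 and 14277 CPM in precompetent larvae (log2 -0.33 ± 0.27), and miR-9-z had a log2 fold change of -0.31 ± 0.23. Both overlapped between the stages.

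The miR-278 family rose through all 3 of its references. miR-278 takes part in energy homeostasis in flies. miR-278-y had 2512, 3772 and 2632 CPM in competent larvae, against 1254, 1391 and 1035 CPM in precompetent larvae, with no overlap. It rose by a log2 fold change of 1.28 ± 0.24 (adjusted p = 0.00554), and it was called whichever library was left out. Postlarvae averaged 10368 CPM.

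miR-278-z had 86.6, 117 and 88.9 CPM in competent larvae, against 26.9, 28.0 and 56.7 CPM in precompetent larvae (log2 1.39 ± 0.34, adjusted p = 0.0189). miR-278-x, longer by 1 base, had 16.9, 26.3 and 16.9 CPM in competent larvae, against 7.48, 8.20 and 9.71 CPM in precompetent larvae (log2 1.24 ± 0.30, adjusted p = 0.0186). CL 2 was the highest library for all 3 references. The calls of both were lost without CL 2 (1.31 for miR-278-z and 1.07 for miR-278-x) or Pre-CL 1 (1.21 and 1.16), and that of miR-278-z also without CL 3 (1.44). That of miR-278-x was lost without the filter on low counts as well (1.33). The sum over the seed CGGTGGG was called higher (log2 1.21 ± 0.23, adjusted p = 0.00617).

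miR-276-y was nearly absent from competent larvae. In flies miR-276 acts in the nervous system. It had 3, 0 and 0 counts in the competent libraries (0.444, 0 and 0 CPM), against 96, 565 and 132 counts in the precompetent libraries (18.0, 90.8 and 30.5 CPM). The precompetent libraries differed 5-fold among themselves, yet each was far above every competent library. Taken as precompetent over competent larvae, the ratio of the pooled counts of each stage, over its summed TMM-scaled library sizes, was 274. Its 95% interval was 93.5 to 1332.5, for counting error only. The edgeR test gave an adjusted p of 0.00267. The 3 competent counts are at the floor of detection, and the postlarvae averaged 27.1 CPM. The call held in every fit without 1 library. In the list that joins miR-276, miR-278, miR-281 and miR-46, 3 of 7 tested members rose and 1 fell, with a median of -0.11. Of all 214 tested miRNAs 22 rose and 20 fell, with a median of -0.29.

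The group of miR-12, miR-216 and miR-283 lay on the lower side throughout. miR-12 and miR-283 are neighbours in the fly genome. Of the group's 4 tested references 2 fell, beside 20 of all 214 tested miRNAs (9.35%). The median log2 fold change was -1.55, beside -0.29 for all. The sequence of miR-216-x is contained in miR-283-x and that of miR-12-z in miR-12-x, so the 4 are not separate in sequence. miR-283-x had 164, 166 and 144 CPM in competent larvae, against 655, 637 and 308 CPM in precompetent larvae. The stages did not overlap, with Pre-CL 3 nearest to competent larvae. miR-283-x fell by 1.75 ± 0.31 on the log2 scale (adjusted p = 0.00512), and the call held whichever library was left out.

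miR-216-x, identical to miR-283-x but for 3 bases missing at the 3′ end and far more abundant, had 24825, 32314 and 27910.1 CPM in competent larvae, against 49017, 46968 and 51826 CPM in precompetent larvae. It had an adjusted p of 0.0189 but stayed under the fold limit (log2 -0.80 ± 0.20), and the stages did not overlap. The longer form made up 0.560 ± 0.0816% of the counts of both in competent larvae and 1.08 ± 0.426% in precompetent larvae (exact permutation p = 0.2). Added together they gave a log2 fold change of -0.86, and the sum over the seed AATCTCA gave -0.87 ± 0.20 (adjusted p = 0.0138), again under the fold limit. A rarer reference with that seed, miR-747-x, had 17, 10 and 5 counts in competent larvae, against 45, 43 and 50 in precompetent larvae, and was called lower (log2 -2.25 ± 0.47, adjusted p = 0.00983).

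miR-12-x had 23.1, 33.9 and 20.1 CPM in competent larvae, against 109.8, 164 and 27.8 CPM in precompetent larvae. It was called lower (log2 -1.97 ± 0.58, adjusted p = 0.0367), but Pre-CL 3 lay within the range of the competent libraries, so the stages overlapped. The call was lost in 8 of the 9 fits without 1 library, at values of -2.15 to -1.37, and held there only without Pre-CL 3. It was also lost with limma (-1.63) and with the larval libraries alone (-2.05). miR-12-z, its shorter form, had 17.6, 22.3 and 13.1 CPM in competent larvae, against 49.6, 64.1 and 20.6 CPM in precompetent larvae and was not called (-1.34 ± 0.46).

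The miR-2 and miR-71 cluster is shared by many protostomes and in flies includes miR-13 as a relative of miR-2. Of its 4 tested references 1 fell, beside 20 of all 214, and its median was -0.73, beside -0.29. miR-13-y had 3.70, 3.59 and 3.61 CPM in competent larvae, against 22.8, 21.2 and 9.25 CPM in precompetent larvae. Competent libraries were almost equal and all below Pre-CL 3, the lowest of its stage. The log2 fold change was -2.28 ± 0.41 (adjusted p = 0.00512), held in every fit without 1 library.

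miR-2-y, far more abundant, had 19011, 23383 and 24547 CPM in competent larvae, against 47279, 49421 and 25525 CPM in precompetent larvae. The stages did not overlap but Pre-CL 3 was next to CL 3. Its log2 fold change of -0.87 ± 0.26 (adjusted p = 0.0416) was under the fold limit, and without Pre-CL 3 it was -1.14 and was called lower. miR-71-x, one of the most abundant miRNAs of the larvae, had 99143, 117054 and 111797 CPM in competent larvae, against 144626, 110997 and 163932 CPM in precompetent larvae (log2 -0.36 ± 0.19, adjusted p = 0.22). Pre-CL 2 lay among the competent libraries.

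miR-1990-x, of a family known from molluscs and annelids, gave the most even fall. It had 47.3, 48.0 and 38.3 CPM in competent larvae, against 143, 175 and 173 CPM in precompetent larvae. The highest competent library was below 50 CPM and the lowest precompetent library above 140 CPM. The mean was 44.6 ± 5.40 CPM in competent and 164 ± 17.7 CPM in precompetent larvae (SD, n = 3 each), which is 3.67-fold lower (log2 -1.87 ± 0.25, adjusted p = 0.00267), in every fit without 1 library.

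Of the 11 tested members of the lophotrochozoan list, 2 fell (miR-1990-x and miR-1986-y) and none was called higher by edgeR, although 4 were higher at an unadjusted p under 0.05 and 3 of these at an adjusted p under 0.05. These were miR-1984-x (log2 0.71 ± 0.18), miR-2001-x (0.97 ± 0.21) and miR-1988-x. miR-1988-x had 739, 831 and 827 CPM in competent larvae, against 421, 424 and 353 CPM in precompetent larvae, a difference just under the 2-fold limit (SE of log2 0.19, adjusted p = 0.00519), and it was called higher under 6 of 8 other settings, DESeq2 and limma among them, and in 7 of the 9 fits without 1 library. The list had a median log2 fold change of 0.15, beside -0.29 for all 214 tested miRNAs, of which 22 rose and 20 fell. miR-1986-y had 15, 17 and 22 counts in competent larvae, against 74, 61 and 24 counts in precompetent larvae (log2 -1.50 ± 0.44, adjusted p = 0.0367), and its call held in only 1 of the 9 fits without 1 library, that without Pre-CL 3.

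miR-745-y had 266, 391 and 315 CPM in competent larvae, against 1312, 1131 and 529.9 CPM in precompetent larvae. The stages did not overlap, and Pre-CL 3 was at less than 50% of the other precompetent libraries. The log2 fold change was -1.61 ± 0.35 (adjusted p = 0.0117). The call was lost without CL 1 (-1.46) or CL 3 (-1.62), and the sum with miR-22-y over the seed AGCTGCC was called lower (-1.68 ± 0.35, adjusted p = 0.00931).

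miR-5119-y had 6.36, 16.8 and 11.3 CPM in competent larvae, against 22.3, 58.0 and 42.1 CPM in precompetent larvae. CL 2 was near Pre-CL 1 but below it. The log2 fold change was -1.83 ± 0.50 (adjusted p = 0.0270), and the call was lost without CL 1, CL 3 or Pre-CL 2, at -1.84 to -1.45.

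Of the predicted miRNAs with at least 10 CPM, 4 were called. The reference predicted 3 rose, with 23.2, 30.3 and 33.6 CPM in competent larvae, against 10.5, 9.16 and 8.79 CPM in precompetent larvae (log2 1.61 ± 0.29, adjusted p = 0.00512). The reference predicted 4 fell, with 4.88, 5.67 and 5.41 CPM in competent larvae, against 17.4, 19.1 and 14.1 CPM in precompetent larvae (log2 -1.66 ± 0.29, adjusted p = 0.00512). Both were called in every fit without 1 library, and neither overlapped between the stages, but without the filter on low counts predicted 4 was not called (-1.56). The reference predicted 2 had 9.31, 9.64 and 11.7 CPM in competent larvae, against 29.9, 26.7 and 54.8 CPM in precompetent larvae (log2 -1.86 ± 0.44, adjusted p = 0.0167), and lost its call without CL 1, CL 2 or CL 3, at -1.97 to -1.74. The reference predicted 1 had 14.6, 14.2 and 22.1 CPM in competent larvae, against 39.7, 32.0 and 44.2 CPM in precompetent larvae (log2 -1.19 ± 0.34, adjusted p = 0.0350), and lost its call in each of the 9 fits without 1 library, at -1.43 to -0.99, and without the filter (-1.09). Of the 51 tested predicted miRNAs, 9 rose and 9 fell (median -0.42), beside 13 and 11 of the 163 known ones (median -0.28). Of all 214 tested, 42 were called (19.6%). Under 10 CPM lay 8 of the 9 predicted miRNAs that rose and 6 of the 9 that fell. Together the 51 predicted miRNAs held 0.0781% of the CPM in competent and 0.107% in precompetent larvae.

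Among the called miRNAs under 10 CPM, 11 had no count at all in 1 larval stage, 8 of them with counts in competent larvae and 3 with counts in precompetent larvae. The 8 hold 7 distinct sequences, since a pair of predicted references with the seed GCTGTGC is 1 sequence with the same 37 counts. The smallest of the 3, with the seed ATCGGGC, rests on 6 counts, 2 in each precompetent library and so below the floor of 3, and was not called without CL 1, CL 2 or CL 3. The predicted miRNAs of this class are identified by their seeds. miR-9852-y, a reference of 18 nt, had 86, 51 and 48 counts in competent larvae and none in precompetent larvae or postlarvae, so it was at least 19.1-fold higher in competent larvae (against a floor of 3 counts per library). The other well-counted references that rose were the predicted miRNA with the seed TCAGTGT (75, 77 and 59 counts in competent larvae, against 16, 16 and 13 in precompetent larvae) and the predicted miRNA with the seed CCCTGTG (38, 31 and 41 counts, against 7, 9 and 9). Of those absent from precompetent larvae, the predicted miRNA with the seed GATAGAC was at least 4.21-fold higher and miR-3327-y at least 2.19-fold higher.

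In the opposite direction, the predicted miRNA with the seed TTCGGCG had no count in competent larvae, against 18, 53 and 74 counts in precompetent larvae (at least 17.2-fold lower). It averaged 28.1 CPM in postlarvae. The predicted miRNA with the seed GTAGCTT had none in competent larvae, against 44, 70 and 15 counts in precompetent larvae (at least 13.6-fold lower), and the predicted miRNA with the seed GCTTGTC had 8, 6 and 7 counts, against 42, 73 and 37, a call lost without CL 1, CL 2 or CL 3. By length, 1 of the 35 tested references of 18 or 19 nt was called (miR-9852-y), against 41 of the 179 of 20 nt or more and 42 of all 214. The median log2 fold change of these 35 was 0, the value of references without a larval count, which could not be called.

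The 10 most abundant miRNAs were mostly near or below equality. miR-184-y, the most abundant, had 169892, 233555 and 218403 CPM in competent larvae, against 139424, 89734 and 262464 CPM in precompetent larvae (log2 0.34 ± 0.35), and the precompetent libraries spread far beyond the competent ones. Its value was 0.83 without Pre-CL 3 (adjusted p = 0.0371, under the fold limit) and 0.11 without Pre-CL 2. miR-242-x, whose name comes from nematodes, had 60946, 90875 and 64751 CPM in competent larvae, against 143208, 127218 and 133795 CPM in precompetent larvae. All competent libraries were below all precompetent libraries, but the test over all 9 libraries did not pass (log2 -0.90 ± 0.59, adjusted p = 0.31). With the larval libraries alone the adjusted p was 0.0124, still under the fold limit (-0.90). Its mean in postlarvae was 24.8 CPM.

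miR-263-x, which protects sensory bristles in flies, had 43559.7, 43278 and 51977 CPM in competent larvae, against 66016, 58098 and 72686 CPM in precompetent larvae (log2 -0.50 ± 0.19, adjusted p = 0.097). miR-183-x has the same sequence and nearly the same counts, with 41129, 43999 and 50056 CPM in competent larvae, against 58614, 48509 and 69854 CPM in precompetent larvae. Of this pair, only miR-263-x showed no overlap. The abundant miRNAs named next overlapped between the stages. miR-279-y, which acts in sensory neurons of flies, had 57209, 73569.6 and 61539 CPM in competent larvae, against 63485, 63552 and 82167 CPM in precompetent larvae (log2 -0.12 ± 0.20). miR-750-y had 49306, 71817 and 72665 CPM in competent larvae, against 46724, 45306 and 79543 CPM in precompetent larvae (log2 0.18 ± 0.28). miR-10-x, which lies in the Hox clusters, had 45604, 64999 and 61105 CPM in competent larvae, against 50871, 33419 and 81049 CPM in precompetent larvae (log2 0.05 ± 0.31, which changed sign under 4 alternatives).

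**Figure D4:**
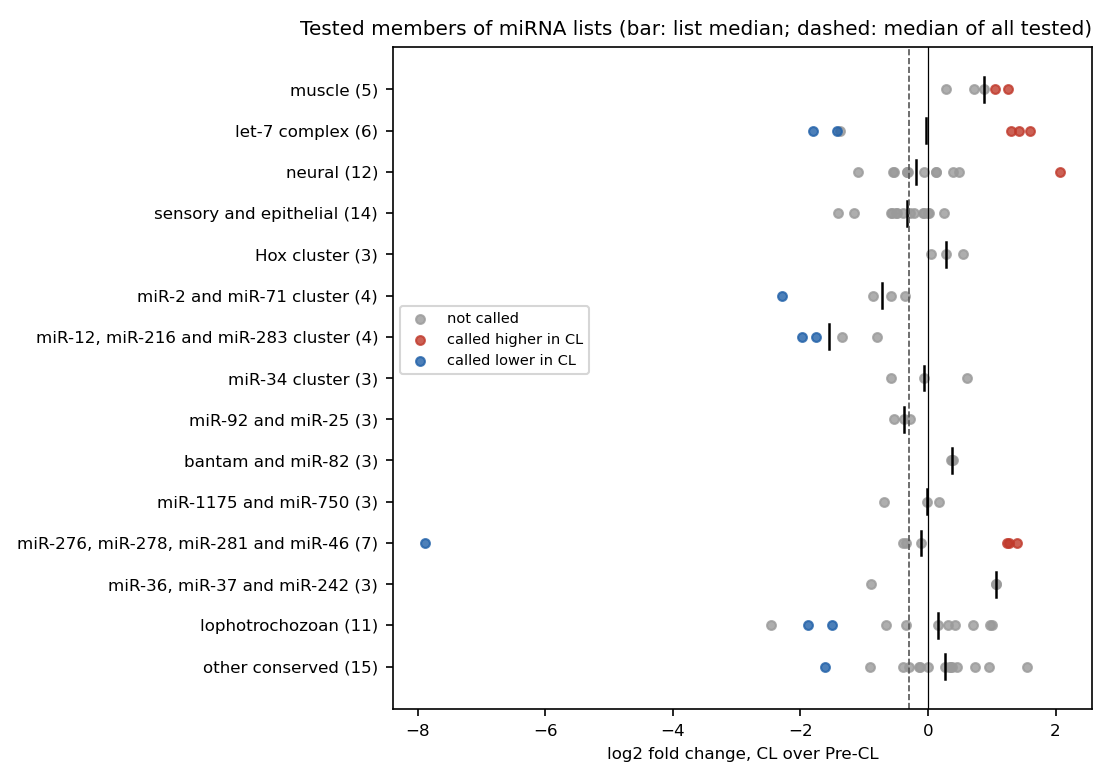
Log2 fold change of competent over precompetent larvae (horizontal) for the tested members of 15 lists of related miRNAs (number tested in brackets), with the list median as a bar and the median of all tested miRNAs, -0.29, as a dashed line. Of the 5 muscle members 2 were called higher. Of the 6 let-7 complex members 3 were called higher and 2 lower. Over all 214 tested miRNAs, 22 were called higher and 20 lower. The point farthest to the left is miR-276-y, with 3 counts in CL.

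Other lists had few or no calls, beside 42 called of all 214 tested miRNAs (19.6%). No member of the sensory and epithelial list was called (14 tested, median -0.33), nor of the lists of the Hox cluster (3 tested, 0.29), miR-34 (3 tested, -0.06), miR-92 and miR-25 (3 tested, -0.38), bantam (3 tested, 0.38), or miR-1175 and miR-750 (3 tested, -0.02). Together with the list of miR-36, miR-37 and miR-242, these held 32 tested miRNAs, of which edgeR gave an unadjusted p under 0.05 for 2 (both lower) and DESeq2 and limma called 0. miR-36-y and miR-37-y, which have the same sequence and nearly the same counts, were not called either. miR-36-y had 1006, 1153 and 990.0 CPM in competent larvae, against 256, 271 and 984 CPM in precompetent larvae (log2 1.06 ± 0.49, adjusted p = 0.17). Pre-CL 3 stood at the level of the competent libraries, and without it miR-36-y was called higher (1.97).

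Some references with names from vertebrates varied between libraries of 1 stage more than between stages. miR-122-x, a liver miRNA of vertebrates, had 918, 61.8 and 178 CPM in competent larvae, against 342, 548 and 1456 CPM in precompetent larvae, and miR-128-y had 28.8, 16.8 and 60.0 CPM, against 207, 11.6 and 66.4 CPM. Neither was called. miR-2478-y, of 18 nt, had 434, 731 and 687 CPM in competent larvae, against 744, 419 and 5043 CPM in precompetent larvae, the excess being in Pre-CL 3 alone.

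In 6 further miRNAs competent larvae were above by less than 2-fold with an adjusted p under 0.05. Besides the 3 lophotrochozoan ones they were miR-67-y (22999.7, 22809 and 22377 CPM in competent larvae, against 13812, 17573 and 9567 CPM in precompetent larvae, adjusted p = 0.0408), miR-981-y (log2 0.95 ± 0.24) and miR-2722-y (0.95 ± 0.29). miR-67-y was evenly high in competent larvae. On the lower side the corresponding miRNAs were the abundant miR-216-x and miR-2-y.

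The deposited association table lists target genes for 41 of the 42 called miRNAs (none for miR-12-x), in 5015 pairs with 3675 genes. Targets were predicted by the authors from transcript ends of the whelk, and pairs were kept only when miRNA and mRNA were inversely correlated over the stages. The gene moved opposite to the called miRNA between the larval stages in 5009 pairs (99.9%), and this share is fixed by that selection and shows nothing further. mRNA levels are stage means by the authors in FPKM, without replicates, so they carry no error or test, and the gene names are the authors' annotations by similarity. In the whole table, 4490 of 11401 genes were lower and 6904 higher in competent larvae. The same selection decides with which miRNAs a gene can be listed, so the counts by keyword list below describe the direction of the mRNAs, and each is given beside the share among annotated genes of the table that moved the same way.

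Most ciliary names of the table belonged to mRNAs lower in competent larvae (74 of 83, beside 1599 of 3975 annotated genes). Of the 554 annotated targets of the higher miRNAs, 29 (5.23%) had a name of the cilia list, near the 4.63% of all annotated genes that were lower in competent larvae. Of the 674 annotated targets of the lower miRNAs, 3 did (0.445%), near the 0.379% of all annotated genes that were higher. Tektin-3 (c150230_g3), a protein of ciliary microtubules, had 94.4 FPKM in competent and 581 FPKM in precompetent larvae and was paired with miR-1-z and miR-206-y. Dynein intermediate chain 2, ciliary (c154991_g1), a part of the ciliary motor, had 11.5 FPKM in competent and 87.5 FPKM in precompetent larvae and was paired with let-7-y. The list also took up names that are not of cilia alone, such as dynein light chain 2, cytoplasmic (c85823_g2), at 163.9 FPKM in competent and 896 FPKM in precompetent larvae.

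Most names of muscle, nerve and matrix belonged to mRNAs higher in competent larvae (39 of 48, 38 of 55 and 26 of 38). So did most annotated genes of the whole table (2375 of 3975), and the counts for nerve and matrix were nearer to that share than the count for muscle. Muscle names made up 15 targets of lower miRNAs (2.23%, beside 1.64% of annotated genes higher in competent larvae) and 3 of higher miRNAs (0.542%, beside 0.563% of those lower). Neural names made up 14 targets of lower miRNAs (2.08%, beside 1.60%) and 3 of higher miRNAs (0.542%, beside 1.06%). Shell and matrix names made up 12 targets of lower miRNAs (1.78%, beside 1.09%) and 2 of higher miRNAs (0.361%, beside 0.750%). These differences were not tested. Paramyosin (c119060_g1), a thick filament protein of invertebrate muscle, had 1049 FPKM in competent and 92.8 FPKM in precompetent larvae, paired with the predicted miRNA with the seed GTAGCTT. FMRFamide-related neuropeptides (c153194_g2) had 57.9 FPKM in competent and 12.2 FPKM in precompetent larvae, and enterin neuropeptides (c154081_g1) had 21.2 and 4.52 FPKM, both paired with predicted 4. Collagen alpha-2(IV) chain (c148854_g1), also paired with predicted 4, had 94.6 FPKM in competent and 20.8 FPKM in precompetent larvae.

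Digestive names made up 21 targets of higher miRNAs (3.79%, beside 2.31% of annotated genes lower in competent larvae) and 13 of lower miRNAs (1.93%, beside 1.81% of those higher). Exoglucanase XynX (c150903_g1), an enzyme name of cellulose breakdown, had 2.64 FPKM in competent and 69.1 FPKM in precompetent larvae and was paired with let-7-y. An endo-beta-1,4-glucanase (c135906_g1) had 6.85 FPKM in competent and 72.4 FPKM in precompetent larvae. An aminopeptidase N (c140464_g1) went the other way, with 12.3 FPKM in competent and 0.150 FPKM in precompetent larvae. Apoptosis names made up 2 targets of higher miRNAs (0.361%, beside 0.813%) and 8 of lower miRNAs (1.19%, beside 0.589%).

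**Figure D5:**
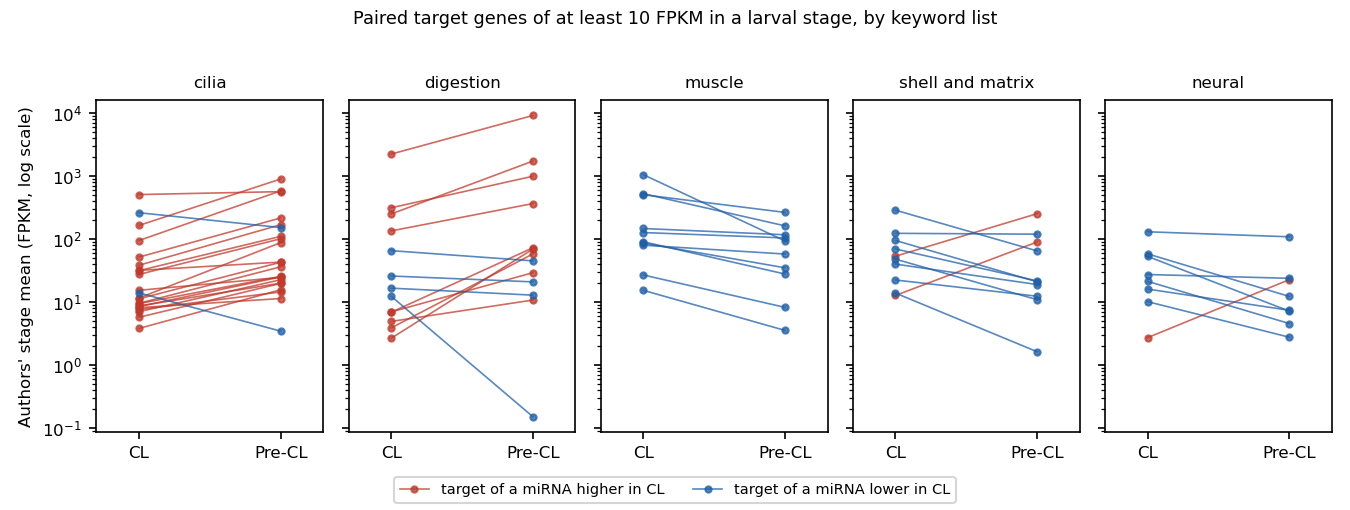
Stage means by the authors (FPKM, log scale) in competent (CL) and precompetent (Pre-CL) larvae of annotated target genes with at least 10 FPKM in a larval stage, by keyword list. Red lines are genes paired with a miRNA higher in CL and blue lines genes paired with a miRNA lower in CL. There are 20 red and 2 blue genes in the cilia list and 10 blue genes in the muscle list, and the slopes, like the split between red and blue, are fixed by the inverse selection of pairs.

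Of the annotated targets with at least 10 FPKM in a larval stage, those that changed most are named next for the called miRNAs. For the miRNAs that rose, complement C1q-like protein 2 (c128323_g1) was listed with miR-1-z and miR-206-y at 13.4 FPKM in competent and 110 FPKM in precompetent larvae. Peritrophin-1 (c133938_g1), named after a chitin-binding protein of the insect gut lining, was the most changed target of miR-278-y and was listed with all 3 miR-278 references, at 77.9 FPKM in competent and 724 FPKM in precompetent larvae. For miR-278-z and miR-278-x, Protein FAM166B (c144315_g1) changed more, at 18.99 FPKM in competent and 199 FPKM in precompetent larvae. Lanosterol 14-alpha demethylase (c144955_g1), an enzyme of sterol synthesis, was listed with miR-124-y at 1.96 FPKM in competent and 19.9 FPKM in precompetent larvae. Septin-7 (c147491_g2), a cytoskeletal GTPase, was another miR-124-y target at 53.7 FPKM in competent and 277 FPKM in precompetent larvae. For let-7-x the most changed was Protein TAR1 (c149026_g1), at 7.19 FPKM in competent and 23.8 FPKM in precompetent larvae, and for miR-98-x an inactive pancreatic lipase-related protein 1 (c150680_g1), at 3.85 FPKM in competent and 57.9 FPKM in precompetent larvae.

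For the miRNAs that fell, feeding circuit activating peptides (c124882_g1), named after neuropeptides of the sea hare's feeding circuit, were listed with miR-1990-x at 254 FPKM in competent and 20.4 FPKM in precompetent larvae. MIP-related peptides (c154656_g1), also named after molluscan neuropeptides, were listed with miR-276-y at 14.0 FPKM in competent and 3.71 FPKM in precompetent larvae. Deoxyribonuclease-1 (c146095_g1) was listed with miR-283-x and predicted 2 at 86.1 FPKM in competent and 0.0533 FPKM in precompetent larvae. Gamma-butyrobetaine dioxygenase (c135187_g1), an enzyme of carnitine synthesis, was listed with miR-13-y, second to a gene annotated only as CGI, at 74.6 FPKM in competent and 4.10 FPKM in precompetent larvae. Actin, cytoplasmic 3 (c146513_g2) was listed with miR-5119-y at 35.5 FPKM in competent and 0.247 FPKM in precompetent larvae. Diamine acetyltransferase 2 (c134697_g1), an enzyme of polyamine breakdown, was listed with predicted 4 at 35.3 FPKM in competent and 0.0467 FPKM in precompetent larvae. For miR-745-y, the protein with the greatest change (c133340_g1) was listed at 12.9 FPKM in competent larvae and at 0 in precompetent larvae. Among the targets of miR-100-x, the most changed was 39S ribosomal protein L13, mitochondrial (c129245_g1), at 21.6 FPKM in competent and 12.6 FPKM in precompetent larvae.

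References with a common seed shared most listed targets, though not always. miR-1-z and miR-206-y shared 187 genes (82.4% of those of miR-1-z and 93.5% of those of miR-206-y), and miR-278-y and miR-278-x shared 49 (75.4% and 84.5%). let-7-x and miR-98-x shared 1 gene (4% of the 25 of let-7-x and 0.980% of the 102 of miR-98-x), although they have the same seed. Only pairs kept by the authors' inverse selection are listed, so shared listing is not shared prediction. Whether that selection set the difference was not tested.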

How the data were processed

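Small RNA of 18 to 30 nt was sequenced (Illumina HiSeq) from 3 libraries each of competent larvae, precompetent larvae and postlarvae. The authors cleaned the reads, removed other RNA classes, aligned the rest to miRBase with up to 2 mismatches, kept the most abundant form of each family as reference, predicted further miRNAs, and deposited raw counts per reference. The aligner is not given in the sources used here. Counts without molecular identifiers are not independent molecules, so intervals and floors cover counting error only. The deposited association table holds stage means in FPKM from the authors' earlier mRNA study, with correlations and fold columns of the authors that were not used. Clean-read tables (other deposited values) gave the reads per class. Unlisted sample columns numbered 0.

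Counts were tested with edgeR 4.0.16 (R 4.3.3) in 1 fit of all 9 libraries, with TMM, its filter on low counts by stage, and Benjamini-Hochberg adjustment. The authors' t-test on normalized values was not used because the values are counts. Counts were also summed over references with the same bases 2 to 8. Shares were compared by exact permutation tests (scipy 1.17.1). Named were all called miRNAs with a mean of at least 10 CPM in the larval libraries, the 10 most abundant, the 2 most abundant of a list as examples, the 3 best counted rarer calls in each direction, and, for targets, annotated genes of at least 10 FPKM that changed most. miRNAs named outside these were chosen after their values were seen (miR-12-z, miR-37-y, miR-122-x, miR-125-x, miR-128-y, miR-133-y, miR-133-z, miR-2478-y, miR-3327-y, the rarer predicted calls given by seed beyond the 3 best counted in each direction, and those under the fold limit). Members and lists were chosen with earlier results of these data known. The procedure was tested on simulated data. Alternatives were other library sizes, DESeq2 1.42.0, limma 3.58.1 on log2(CPM + 1), other filters, larval libraries only, nested references summed, a replicate block, and each library left out. The replicates are separate pools, and p-values measure the spread between them.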

Additional observations from a re-analysis of the deposited data

How the results depend on the processing

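Under other library sizes, DESeq2, limma, no filter and larval libraries only, the count of miRNAs called higher stayed at 16 to 32 and lower at 17 to 30, beside 22 and 20. With only miRNAs over 10 CPM tested (108 of them), 13 were higher and 10 lower. Leaving out 1 library gave 17 to 27 higher and 10 to 27 lower, the 10 without CL 2 and also without CL 3. Of the 22 called miRNAs with at least 10 CPM, 9 (4 higher, 5 lower) were called in each of these 9 fits. Among seed groups, 16 were higher and 16 lower. Leaving out 1 library gave 13 to 21 higher and 6 to 21 lower, with 6 lower without CL 2, 7 without CL 3, 9 without Pre-CL 1 and 10 without postlarvae replicate 2. With nested references summed, 20 were higher and 18 lower, and miR-1-z and miR-283-x were no longer called. Other settings ended the call of miR-100-x with total miRNA counts as library size, of miR-100-x, miR-99-x and miR-12-x with the larval libraries alone, of miR-12-x with limma, and of miR-278-x, predicted 1 and predicted 4 without a filter.

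Among the named miRNAs and the alternatives run, direction changed only for miR-10-x, at -0.00914 with nested references summed, and at -0.01 without CL 3, -0.00175 without Pre-CL 1 and -0.14 without Pre-CL 2 (up to 0.41 without Pre-CL 3). The median log2 fold change of all tested miRNAs was -0.29. It was -0.14 with limma on log2(CPM + 1), -0.12 without Pre-CL 2 and also without Pre-CL 3, and 0 without a filter.

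The sources do not say whether the replicate numbers pair the samples. As deviations from their stage mean, same-numbered libraries correlated at -0.24, 0.14 and -0.11, and differently numbered ones at -0.24 to 0.39. With 3 libraries a stage, these values cannot settle whether the numbers pair the samples. With the replicate number as a block and the larval libraries alone (171 tested), edgeR called 5 miRNAs higher and 4 lower, against 16 and 17 in the same libraries without the block. Of the 22 called miRNAs with at least 10 CPM, 18 lost their call under the block, at adjusted p of 0.0506 to 0.136 and with log2 fold changes within 0.29 of those reported. Among 134 seed groups the block fit of edgeR called 0 higher and 0 lower, with 40 at an unadjusted p under 0.05, against 15 and 12 in the same libraries without the block. No other tool was run with the block, and the cause of the lost calls was not tested. For target genes of at least 1 FPKM, 4884 of 4887 pairs moved opposite ways.

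Depth limits the rare references, since 3 counts correspond to 0.444 to 0.694 CPM, and 5 of the 42 calls lie under 1 CPM, where a stage holds few counts. With 3 libraries a stage, no exact permutation test can go below 0.1. The fits without a library test different sets of miRNAs.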
